A study of Mus musculus with 20 samples.

Results

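The genes described here are 10 components of the inflammasome and IL-18 pathway, measured by RNA sequencing in the ileum of mice fed a tryptophan-deficient diet with or without antibiotics. They were named from what the genes are known to do, and were chosen with earlier results of these data known. They are the sensors Nlrp6, Nlrp9b, Nlrc4, Naip1 and Naip2, the adaptor Pycard, the caspases Casp1 and Casp4, the pore-forming Gsdmd and the cytokine Il18. All 10 were found among the 35204 genes of the deposited count table, and all 10 passed the filter on low values that left 16306 genes for testing. The mice were C57BL/6 females, 7 weeks old by the study's methods, and were fed their diets for 3 weeks. CD mice received a control diet and TDD mice a diet that lacked tryptophan (Trp), and both were specific pathogen-free (SPF) and given no antibiotics. The study reports that the TDD itself changed the bacteria of ileum and stool. CD+ABX and TDD+ABX mice ate the same diets and were given a mixture of neomycin, gentamycin, ampicillin, metronidazole and vancomycin. By the study's methods these were given in drinking water that also held sucrose, and sucrose is not stated for the SPF mice. Each of the 4 groups held 5 numbered libraries, each called a mouse here, and cages and litters are not given in the labels. The piece of ileum was taken whole, so its RNA comes from epithelium, immune cells and muscle together, and fewer cells of a type and less RNA per cell cannot be told apart.

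An inflammasome is a protein platform that a cell assembles when a sensor meets a microbial product or a sign of damage. The adaptor ASC, the product of Pycard, links many sensors to pro-caspase-1, which then cleaves pro-IL-18 and pro-IL-1β into their active forms and cuts gasdermin D, whose fragment opens pores in the membrane. NAIP proteins bind flagellin or parts of bacterial secretion systems and hand the signal to NLRC4, whereas caspase-11, encoded by Casp4, senses cytosolic lipopolysaccharide without ASC. In the gut, epithelial cells hold much of this machinery and release IL-18, and NLRP6 and NLRP9b are known for high levels in the intestinal epithelium.

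Casp1 and Casp4 are neighbours on the same strand of chromosome 9, with 1562 bases between the end of Casp1 and the start of Casp4 in the GENCODE annotation of GRCm38, and the diet lowered Casp1 past the test's threshold where the change of Casp4 did not pass. The 250 bases before RefSeq's start of each are therefore shown, together with those of Nlrp6 and Il18, which ABX moved in opposite directions on TDD. RefSeq gave 2 starts for Casp4, and the first listed was used. The sequences are RefSeq's (GRCm38.p6), which held an entry for 9 of the 10 members, and each is written 5′ to 3′ on the gene's own strand. They lie at chr9:5298267-5298516 (Casp1), chr9:5308599-5308848 (Casp4), chr7:140920652-140920901 (Nlrp6) and chr9:50554450-50554699 (Il18), all on the plus strand. Capitals mark the motif matches described next.
Casp1: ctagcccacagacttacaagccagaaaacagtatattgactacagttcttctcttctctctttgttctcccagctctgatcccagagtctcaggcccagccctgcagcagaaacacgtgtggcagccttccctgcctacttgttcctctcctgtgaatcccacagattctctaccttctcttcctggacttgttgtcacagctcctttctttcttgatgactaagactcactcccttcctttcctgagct
Casp4: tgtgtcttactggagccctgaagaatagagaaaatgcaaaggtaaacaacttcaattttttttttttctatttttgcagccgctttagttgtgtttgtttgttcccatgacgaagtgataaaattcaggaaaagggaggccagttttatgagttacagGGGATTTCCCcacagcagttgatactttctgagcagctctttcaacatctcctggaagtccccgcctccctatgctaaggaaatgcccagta
Nlrp6: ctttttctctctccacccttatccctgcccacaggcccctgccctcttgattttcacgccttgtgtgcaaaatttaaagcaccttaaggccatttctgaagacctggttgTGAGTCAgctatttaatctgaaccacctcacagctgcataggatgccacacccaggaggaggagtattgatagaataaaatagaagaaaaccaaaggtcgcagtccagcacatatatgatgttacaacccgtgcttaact
Il18: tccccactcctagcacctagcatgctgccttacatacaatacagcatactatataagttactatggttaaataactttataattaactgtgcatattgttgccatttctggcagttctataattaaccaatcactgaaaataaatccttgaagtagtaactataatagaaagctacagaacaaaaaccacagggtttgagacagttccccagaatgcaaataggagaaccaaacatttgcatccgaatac

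The 9 sequences were searched on both strands for 5 motifs, chosen after the values were seen. The capitals in Casp4 are a match to the NF-kB motif from 92 to 83 bases before the start, and 0.94% of 27025 promoters of the same length held this motif. The capitals in Nlrp6 are a match to the AP-1 motif (TGANTCA) from 140 to 134 bases before the start, found in 6.87% of promoters. Neither Casp1 nor Il18 held a match to any of the 5. The interferon-gamma activated site (GAS, TTCNNNGAA; 7.18% of promoters) was matched only in Nlrp9b and the HNF4A motif (CAAAGTCC; 1.22%) only in Nlrc4, and the core of the interferon-stimulated response element (ISRE; 3.04%) in none of the 9. The Nlrp9b sequence (chr7:20007773-20008022) lies inside the gene as GENCODE annotates it, from 19991465. The ends of others run into their annotated genes. These are Casp4 (sequence to 5308848, gene from 5308828), Nlrc4 (minus strand, sequence from 74459109, gene to 74459142) and Naip1 (minus strand, sequence from 100452865, gene to 100452869). A match says that these letters are there and nothing about binding.

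Total counts ranged from 36676963 to 58662617 a mouse, and the least abundant member, Casp4, had at least 524 counts in every mouse. No library duplicated another. All 8 epithelial markers were detected in every mouse, but Fabp6, a bile acid-binding protein of the ileal enterocyte, had mean levels of only 1.17 CPM in CD and 1.40 CPM in TDD mice, against 41.6 CPM in CD+ABX and 20.1 CPM in TDD+ABX mice. CD mouse 2 stood apart: it had the lowest value of its group for 7 of the 10 members, the lowest summed ileal enterocyte markers of all mice (7720.2 CPM, where the other CD mice had 13202.9 to 16938.3 CPM) and the highest summed smooth muscle markers (2507.8 CPM). TDD mouse 1 had the highest value of its group for 7 of the 10. CD mouse 5 held pancreatic transcripts (summed markers 114.2 CPM, against at most 0.319 CPM in each of the others).

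Compared per transcript length, the end of the pathway was more abundant than most of its sensors. Averaged over the 20 mice, Gsdmd stood at 378.0 TPM (a unit that scales for transcript length and depth), Pycard at 211.8 TPM, Casp1 at 123.3 TPM, Nlrp6 at 96.8 TPM and Il18 at 94.2 TPM. Nlrp9b followed at 48.2 TPM, Naip2 at 30.0 TPM, Nlrc4 at 23.6 TPM, Naip1 at 23.1 TPM and Casp4 at 22.5 TPM. Gsdmd ranged from 265.8 to 546.1 TPM over the mice and Casp4 from 12.6 to 34.6 TPM. Short or non-coding isoforms held part of these levels. Over all mice, Gsdmd-201 held 54.1% of the Gsdmd TPM (group means of 194.8 to 218.7 TPM) and 3 transcripts annotated as retained introns held 18.8%, 15.2% and 2.89%. Nlrp9b-204, a transcript of 454 bases, held 43.2% of the Nlrp9b TPM, and Pycard-202, of 493 bases, held 80.5% of the Pycard TPM. Apart from this paragraph and the transcript shares given near the end, levels are in CPM, counts scaled to library size by TMM, which compare mice but not genes.

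**Figure D1:**
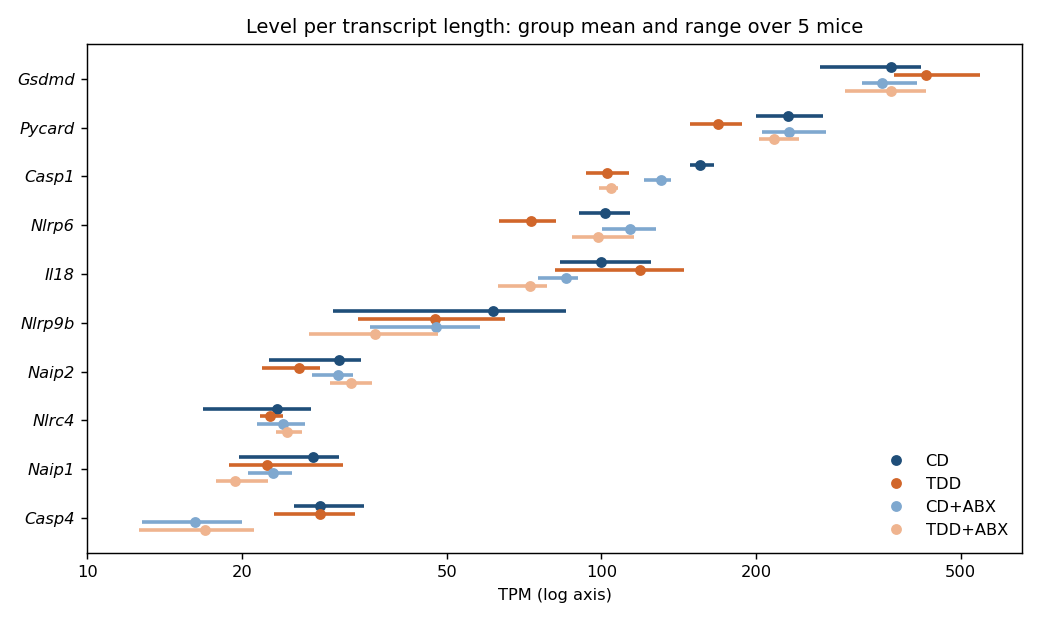
TPM (log axis) of each gene, ordered by its mean over all mice. Points are group means and lines run from the lowest to the highest of 5 mice. Gsdmd and Pycard have the highest means, 378.0 and 211.8 TPM, and the ABX groups of Casp4 (12.6 to 21.1 TPM) lie apart from the SPF groups (23.1 to 34.6 TPM).

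Tests used edgeR's quasi-likelihood fit over all 16306 genes, and a gene passed at a Benjamini-Hochberg adjusted p (q) under 0.05. SE is the standard error of a log2 fold change, worked out as its absolute value over the square root of the test's F. TDD feeding of SPF mice lowered 3 of the 10 members, where 14.4% of all genes passed and 7.71% passed with a lower level. In ABX-treated mice TDD feeding lowered 1 member (1.64% of all genes passed, 1.02% lower). ABX lowered 2 members in CD-fed mice (12.6% of all genes, 7.37% lower). In TDD-fed mice ABX lowered 2 and raised 1 (15.4% of all genes, 8.22% lower and 7.14% higher). The median log2 fold change of the 10 was -0.23, -0.26, -0.12 and -0.18 in these comparisons, and that of all genes lay between -0.03 and 0.01.

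**Figure D2:**
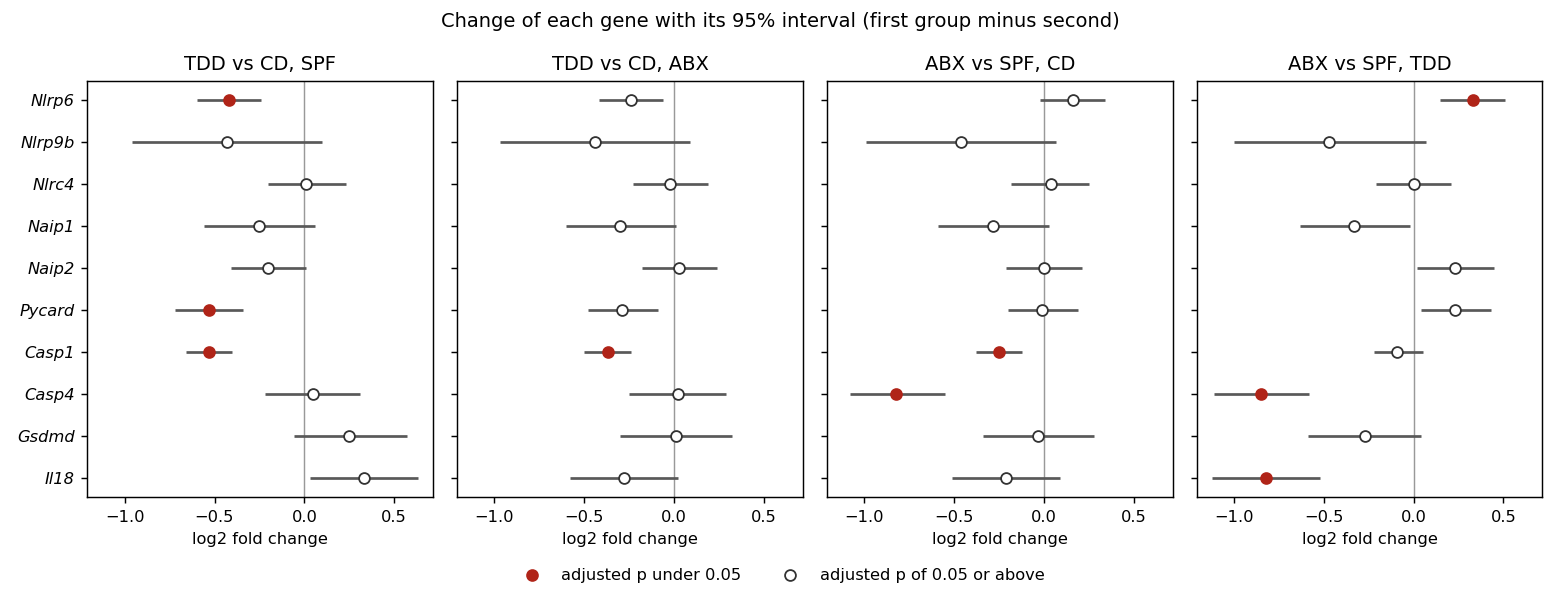
Log2 fold change (x axis) of each gene in the 4 single-factor comparisons. Points are the fitted changes with 95% intervals (standard error times the t quantile at 16 residual degrees of freedom). Filled points passed at q under 0.05: Nlrp6, Pycard and Casp1 for diet in SPF mice, Casp1 for diet with ABX, Casp1 and Casp4 for ABX on CD, and Nlrp6, Casp4 and Il18 for ABX on TDD.

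The sensor Nlrp6 (ENSMUSG00000038745.15, chromosome 7, 140920902 to 140929192) fell with TDD in SPF mice and rose with ABX in TDD-fed mice. Its level was 306.9, 294.4, 277.5, 330.3 and 364.6 CPM in the 5 CD mice and 219.8, 239.9, 251.5, 239.9 and 225.4 CPM in the 5 TDD mice. Every TDD mouse lay under every CD mouse. The means were 314.7 ± 33.9 and 235.3 ± 12.7 CPM (SD, n = 5), which is -0.42 on the log2 scale (edgeR, SE 0.09, q = 0.00294). With ABX, the 5 CD mice had 339.0, 355.7, 387.0, 336.9 and 337.3 CPM and the 5 TDD mice 285.4, 362.2, 287.2, 291.8 and 256.1 CPM. These groups overlapped through TDD+ABX mouse 2, and the difference did not pass (log2 fold change -0.24, 95% interval -0.42 to -0.06, q = 0.168, edgeR). Without that mouse it was -0.33 (q = 0.0469, edgeR), the only 1 of 20 fits without 1 mouse that passed (q up to 0.35). TDD+ABX mice lay above all TDD mice (log2 fold change 0.33, edgeR, SE 0.09, q = 0.0143), whereas CD+ABX and CD mice were not separated by the test (0.16, 95% interval -0.02 to 0.34, q = 0.25, edgeR). In order, Nlrp6 was highest in CD+ABX, then CD, TDD+ABX and TDD, and the last step was the only one between neighbours that passed.

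Nlrp9b (ENSMUSG00000060508.16, chromosome 7, 19991465 to 20073306), a sensor linked to viral RNA in enterocytes, had the largest coefficient of variation of the members in each group (22.0% to 33.9%). It ranged from 40.4 to 120.4 CPM in CD mice, with CD mouse 2 lowest, and from 45.3 to 97.5 CPM in TDD mice, with TDD mouse 1 highest. With ABX it ranged from 46.5 to 79.9 CPM on CD and from 36.5 to 61.4 CPM on TDD. The groups overlapped in each single-factor comparison, where its log2 fold changes were of like size, from -0.47 to -0.43 (SE 0.25), and none passed (q from 0.219 to 0.437, edgeR). Mice with both treatments had 47.4 ± 10.4 CPM against 88.4 ± 29.9 CPM in mice with neither (SD, n = 5), and this difference passed (log2 fold change -0.90, edgeR, SE 0.25, q = 0.0156). Without CD mouse 2, the diet change of Nlrp9b in SPF mice passed (-0.62, q = 0.0477, edgeR). It was the only 1 of 20 fits without 1 mouse that passed (-0.62 to -0.30, q up to 0.506).

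Of the NAIP-NLRC4 branch, Nlrc4 (ENSMUSG00000039193.9, chromosome 17, 74425438 to 74459142) had near-equal means in the 4 groups. They were 68.2 ± 12.4 CPM in CD, 68.8 ± 2.05 CPM in TDD, 69.9 ± 7.54 CPM in CD+ABX and 68.9 ± 3.03 CPM in TDD+ABX mice (SD, n = 5). The lowest and highest of these differ 1.03-fold, and the 95% intervals of its 4 single-factor log2 fold changes lay within -0.23 and 0.25. The low value among CD mice was mouse 2 at 47.1 CPM, where the other 4 had 68.6 to 78.4 CPM.

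The sensor Naip1 (ENSMUSG00000021640.6, chromosome 13, 100407764 to 100452869), whose product binds the needle protein of bacterial secretion systems, had its highest mean in CD and its lowest in TDD+ABX mice. It ranged from 73.9 to 122.8 CPM in CD, from 74.0 to 130.4 CPM in TDD, from 76.7 to 95.6 CPM in CD+ABX and from 64.6 to 81.7 CPM in TDD+ABX mice. None of its single-factor changes passed (log2 fold changes from -0.33 to -0.25, q from 0.135 to 0.354, edgeR), and the difference between both treatments and neither did (-0.58, edgeR, SE 0.15, q = 0.0079). TDD mouse 1, at 130.4 CPM, lay far above the other TDD mice at 74.0 to 83.1 CPM. Without it the diet change of Naip1 in SPF mice passed (-0.43, q = 0.0205, edgeR). It was the only 1 of 20 fits without 1 mouse that passed (-0.43 to -0.19, q up to 0.478).

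Its paralog Naip2 (ENSMUSG00000078945.10, chromosome 13, 100144063 to 100202092), which recognises the rod protein of those systems, passed in no comparison with all mice. The largest single-factor difference was between TDD+ABX mice (110.1 to 125.1 CPM) and TDD mice (85.9 to 106.1 CPM), which did not overlap (log2 fold change 0.23, 95% interval 0.02 to 0.45, q = 0.119, edgeR). CD mouse 2 had 79.4 CPM and the other CD mice 114.8 to 127.3 CPM. Without it, Naip2 passed for diet in SPF mice (-0.31, q = 0.00614, edgeR) and for ABX in TDD-fed mice (0.26, q = 0.0155, edgeR). In each comparison this was the only 1 of 20 fits without 1 mouse that passed (q up to 0.375 and 0.241). The Naip genes are close paralogs, as are Nlrp9b and its relatives, and reads that match several of them are divided by estimation.

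The adaptor gene Pycard (ENSMUSG00000030793.4, chromosome 7, 127989708 to 127993867) fell with TDD in SPF mice. The CD mice had 170.7, 205.8, 179.4, 165.2 and 214.4 CPM and the TDD mice 132.6, 139.0, 116.0, 140.2 and 120.4 CPM. All TDD mice lay under all CD mice, with a mean 69.3% of the CD mean (log2 fold change -0.53, edgeR, SE 0.09, q = 0.000843). In ABX-treated mice the levels were 185.6, 167.6, 192.7, 218.8 and 165.6 CPM on CD and 163.4, 151.4, 167.0, 147.7 and 132.6 CPM on TDD. These groups overlapped narrowly (165.6 and 167.0 CPM), and the difference did not pass (-0.29, 95% interval -0.48 to -0.09, q = 0.123, edgeR). ABX alone left Pycard close to the CD level (log2 fold change -0.01, 95% interval -0.20 to 0.19). The mean of TDD+ABX mice lay between those of TDD and CD mice. They passed as lower than CD (-0.30, q = 0.0257, edgeR), a call lost in 5 of 20 fits without 1 mouse (those without CD mouse 2 or 5 or TDD+ABX mouse 2, 4 or 5, with q up to 0.0792), with the 2 groups fitted alone (-0.28, edgeR q = 0.0705) and with limma on log2(TPM + 0.1) (-0.08, q = 0.613). Their difference from TDD mice did not pass in edgeR (0.23, q = 0.0876) and passed in DESeq2 (0.25, q = 0.0391).

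Casp1 (ENSMUSG00000025888.5, chromosome 9, 5298517 to 5307265), which encodes the caspase at the centre of the pathway, was lowered by TDD with and without ABX. Its level was 166.3, 153.6, 154.7, 164.8 and 179.5 CPM in CD mice and 127.7, 123.2, 103.9, 105.7 and 105.6 CPM in TDD mice. Every TDD mouse lay under every CD mouse (means 163.8 ± 10.5 and 113.2 ± 11.3 CPM, SD, n = 5; -0.53 on the log2 scale, edgeR, SE 0.06, q = 2.78e-05). With ABX, the CD mice had 132.4, 140.1, 139.1, 140.8 and 136.1 CPM and the TDD mice 106.8, 113.2, 108.1, 99.9 and 105.7 CPM. The groups were again separate (137.7 ± 3.45 and 106.7 ± 4.81 CPM, SD, n = 5; -0.37 on the log2 scale, edgeR, SE 0.06, q = 0.0056). ABX lowered Casp1 in CD-fed mice, without overlap (-0.25, edgeR, SE 0.06, q = 0.0119), but its change in TDD-fed mice did not pass (-0.09, 95% interval -0.22 to 0.05, q = 0.368, edgeR). In order, the levels were CD, CD+ABX, TDD and TDD+ABX, and only the last 2 did not differ in the test. The test of whether the diet's change differed between SPF and ABX-treated mice gave a log2 difference of 0.17 (95% interval -0.02 to 0.35, q = 0.61, edgeR). Casp1 was the member that passed in the most comparisons, 5 of the 6 between pairs of groups.

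Its neighbour Casp4 (ENSMUSG00000033538.13, chromosome 9, 5308828 to 5336783) was lowered by ABX on both diets, and its diet changes did not pass. SPF mice had 22.2, 22.6, 29.1, 23.3 and 27.9 CPM on CD and 30.1, 26.6, 22.6, 28.6 and 21.3 CPM on TDD. ABX-treated mice had 11.6, 14.3, 13.3, 17.3 and 14.4 CPM on CD and 13.7, 11.8, 15.1, 17.8 and 13.5 CPM on TDD. The highest of the 10 ABX-treated mice, at 17.8 CPM, lay under the lowest of the 10 SPF mice, at 21.3 CPM. ABX lowered Casp4 to 56.7% of its mean on CD (log2 fold change -0.82, edgeR, SE 0.13, q = 0.000555) and to 55.7% on TDD (-0.85, edgeR, SE 0.13, q = 0.000542). The diet's log2 fold change was 0.05 in SPF mice (95% interval -0.22 to 0.31, q = 0.85, edgeR) and 0.02 with ABX (95% interval -0.25 to 0.29, q = 0.959, edgeR).

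**Figure D3:**
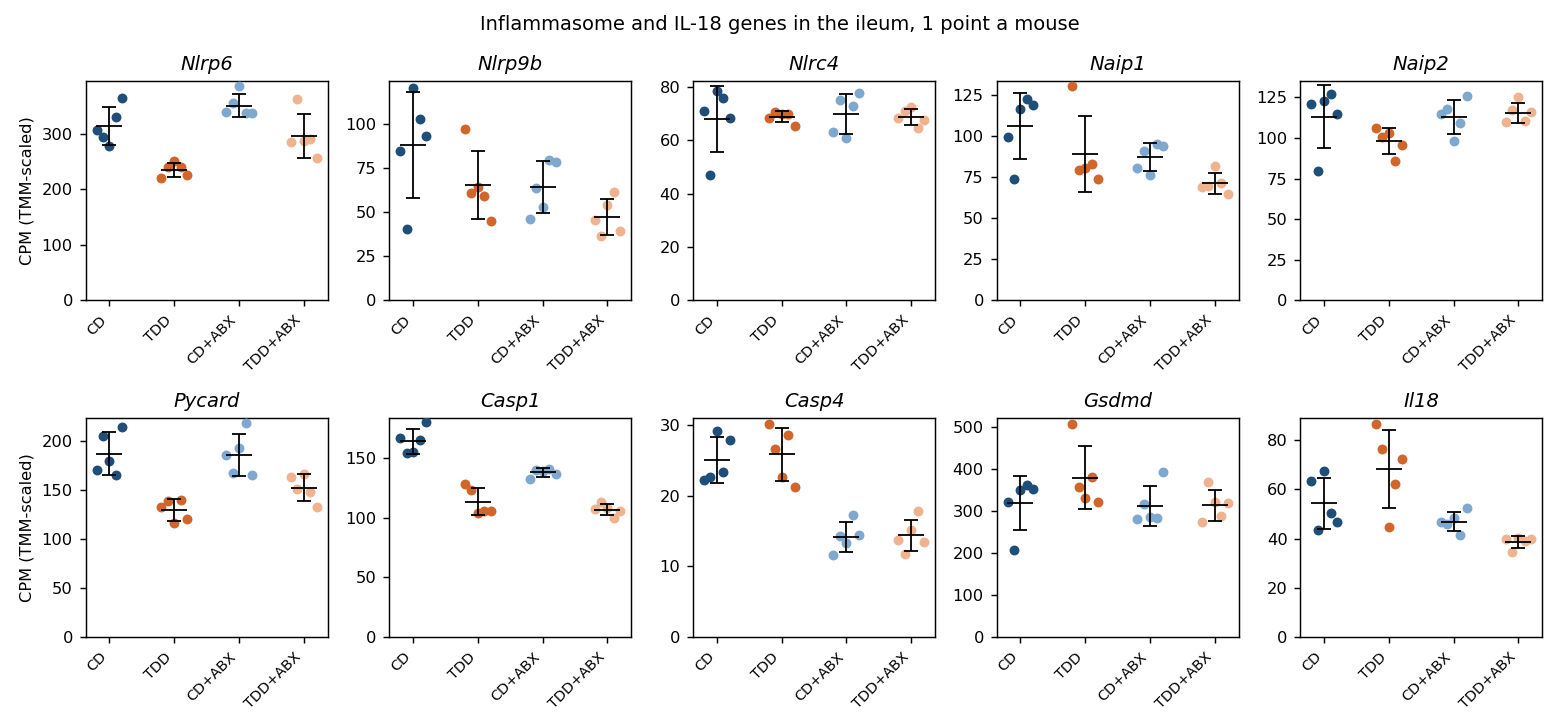
CPM (y axis, from 0) of each gene in each mouse, by group. Points are mice and the bars show the mean and SD of 5. Casp4 separates SPF from ABX-treated mice, Casp1 separates the diets in both settings, and Nlrc4 has the same mean in every group to within 1.03-fold.

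Gsdmd (ENSMUSG00000022575.5, chromosome 15, 75862327 to 75867408), the pore-forming end of the pathway, passed in no comparison. Its means were 318.9 ± 63.6 CPM in CD, 379.8 ± 74.9 CPM in TDD, 312.1 ± 47.9 CPM in CD+ABX and 314.3 ± 37 CPM in TDD+ABX mice (SD, n = 5). The 95% interval of the diet's log2 fold change was -0.06 to 0.57 in SPF mice and -0.30 to 0.32 with ABX. CD mouse 2 was lowest at 208.2 CPM and TDD mouse 1 highest at 507.2 CPM.

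The cytokine gene Il18 (ENSMUSG00000039217.13, chromosome 9, 50554827 to 50581840) was lowered by ABX in TDD-fed mice. Its level was 63.3, 43.5, 67.3, 50.4 and 46.6 CPM in CD mice and 86.4, 76.2, 44.5, 62.2 and 72.3 CPM in TDD mice. With the mean higher on TDD, the groups overlapped and the difference did not pass (log2 fold change 0.33, 95% interval 0.03 to 0.63, q = 0.125, edgeR). Without TDD mouse 3 it did (0.44, q = 0.0229, edgeR), the only 1 of 20 fits without 1 mouse that passed (q up to 0.284). With ABX, the CD mice had 46.6, 45.8, 48.3, 41.3 and 52.4 CPM and the TDD mice 40.0, 34.6, 40.2, 38.8 and 39.9 CPM. Here the TDD mice all lay under the CD mice, yet the difference did not pass either (-0.28, 95% interval -0.58 to 0.02, q = 0.379, edgeR). ABX lowered Il18 in TDD-fed mice to 56.7% of its mean (-0.82, edgeR, SE 0.14, q = 0.00162), with no overlap, and its change in CD-fed mice did not pass (-0.21, 95% interval -0.51 to 0.09, q = 0.381, edgeR).

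Il18 was the member for which the diet's change differed most between SPF and ABX-treated mice, by -0.61 on the log2 scale (95% interval -1.03 to -0.19, unadjusted p = 0.00664 in edgeR's fit), and this did not pass over all genes (q = 0.319). No member passed this interaction test in edgeR, DESeq2 or limma-voom, and 0.0368% of all genes passed (6 of 16306). In edgeR 1 of 10 had an unadjusted p under 0.05, as did 8.87% of all genes. For Nlrp6 and Pycard, whose diet change passed without ABX only, the difference between the settings did not pass (log2 differences 0.18, q = 0.731, and 0.24, q = 0.616, edgeR).

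Mice with both treatments were lower than mice with neither for 6 members: Nlrp9b, Naip1, Pycard, Casp1, Casp4 and Il18 (21.8% of all genes passed, 11.5% lower). Casp1 fell by 0.62 (SE 0.06, q = 3.15e-06), Casp4 by 0.80 (SE 0.13, q = 0.000213) and Il18 by 0.49 (SE 0.14, q = 0.0189) on the log2 scale in edgeR's fit. The call for Il18 was lost without CD mouse 1, CD mouse 3 or TDD+ABX mouse 2 (q up to 0.0613). Between antibiotics alone and diet alone, CD+ABX mice were higher than TDD mice for Nlrp6 (0.58), Pycard (0.52) and Casp1 (0.28) and lower for Casp4 (-0.87) and Il18 (-0.54, log2 fold changes), 5 of the 10, where 25.3% of all genes passed, 13.7% lower and 11.6% higher.

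Groups did not overlap in CPM for 3 members in the diet comparison of SPF mice (9.58% of all genes), namely Nlrp6, Pycard and Casp1, and for 2 with ABX (4.78%), Casp1 and Il18. They did not overlap for 2 with ABX on CD (9.74%), Casp1 and Casp4, and for 4 on TDD (11.0%), Nlrp6, Naip2, Casp4 and Il18. For both treatments against neither, 3 members were separate (13.0%), namely Casp1, Casp4 and Il18, and for CD+ABX against TDD 4 (16.4%), Nlrp6, Pycard, Casp1 and Casp4. No member reached a 2-fold change in any comparison, as the study's own rule for a changed gene required, where 1.83%, 0.307%, 2.25%, 1.63%, 2.81% and 4.08% of all genes met it (in the order diet in SPF mice, diet with ABX, ABX on CD, ABX on TDD, both against neither, and CD+ABX against TDD). Groups that appear in several of these comparisons are the same mice.

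Among immune cell markers, those of T cells and of macrophages and dendritic cells were lower in some comparisons, and those of B cells had another pattern. With ABX on CD, 6 of 6 T cell markers were lower, and their sum was 30.8 to 98.7 CPM in CD, 26.1 to 42.9 CPM in TDD, 16.5 to 21.5 CPM in CD+ABX and 15.7 to 27.8 CPM in TDD+ABX mice. For diet in SPF mice all 6 had a negative sign, and 1 passed (q = 0.00838, edgeR), with 2 in DESeq2. For diet with ABX none of the 6 passed, and 5 had a positive sign. Of the 8 macrophage and dendritic cell markers, 5 were lower with ABX on CD and 3 with TDD in SPF mice (Adgre1, Csf1r and Cd68), and their sum was 131.9 to 168.2 CPM in CD, 77.9 to 125.7 CPM in TDD, 91.9 to 105.7 CPM in CD+ABX and 82.2 to 96.3 CPM in TDD+ABX mice. With ABX on TDD, 4 of 6 T cell markers and 2 of 8 macrophage and dendritic cell markers were lower. None of the T cell or macrophage and dendritic cell markers was at 0 in any mouse. All 6 B cell markers had a positive sign for diet in both settings, but none passed in edgeR. Their sum was 4.46 to 98.8 CPM in CD and 4.59 to 153.8 CPM in TDD mice. It was 2.34 to 7.75 CPM in CD+ABX and 3.74 to 105.4 CPM in TDD+ABX mice. In edgeR all 6 were lower in CD+ABX than in TDD mice, and 2 passed in limma-voom. Of 3 neutrophil markers tested, none passed for diet (2 positive), and 1 was lower with ABX on CD. General epithelial markers did not pass for diet in SPF mice (0 of 8 in edgeR, 0 in DESeq2 and limma-voom, and 0 at an unadjusted p under 0.05), and 3 of 8 rose with ABX on each diet. All 6 goblet cell markers had a negative sign for diet in SPF mice, and 1 passed (q = 0.000619, edgeR). With ABX none of these 6 passed for diet. Of 6 ileal enterocyte markers, none passed for diet in either setting in edgeR, and 1 did in SPF mice in DESeq2. With ABX, 3 of these 6 rose on each diet. The part of these cell types in the members' changes was not tested.

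Outside the 10, the sensors and cofactors of other inflammasomes were tested for 12 of 17 listed genes, with Naip7 not in the table used here and 4 under the filter. None passed for diet in SPF or ABX-treated mice in edgeR, DESeq2 or limma-voom, nor had an unadjusted p under 0.05 in edgeR. With ABX on CD, 3 were lower: Nlrc3, an inhibitory NLR protein (-1.15, q = 0.00372), the DNA sensor Aim2 (-0.56, q = 0.0211) and Nlrp3 (-0.88, q = 0.0315, log2 fold changes in edgeR). With ABX on TDD, 3 were lower, Nlrc3 (-0.98), Aim2 (-0.51) and the NLRP3 partner Nek7 (-0.33). Nlrp3 was scarce, with means of 0.653 to 1.2 CPM.

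Of 10 other caspases, gasdermins and membrane rupture genes tested (11 listed), 3 fell with TDD in SPF mice, among them Gsdma2 (-0.54, q = 0.0407) and the channel gene Panx1 (-0.33, q = 0.0483, edgeR). In this comparison 4 of the 10 passed in DESeq2 and 1 in limma-voom. For diet with ABX, none passed in edgeR or limma-voom and 1 in DESeq2, with 5 at an unadjusted p under 0.05 (14.7% of all genes, edgeR). With ABX on CD, 2 were higher, Gsdme (0.69, q = 0.0136) and Casp8 (0.32, q = 0.0492), and 2 lower, among them P2rx7, an ATP-gated channel that triggers NLRP3 (-0.87, q = 0.000358, edgeR). With ABX on TDD, 2 were higher, Panx1 (0.37, q = 0.0268) and Gsdma2 (0.52, q = 0.0436), and 2 lower, P2rx7 (-0.51, q = 0.0105) and Gsdma (-0.74, q = 0.0383, edgeR). For ABX on either diet, 6 of the 10 passed in DESeq2 and 3 in limma-voom. Both Gsdma genes were scarce, with Gsdma at 1.12 CPM in TDD and 0.669 CPM in TDD+ABX mice and Gsdma2 at 0.915 and 1.32 CPM.

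Among 11 IL-1 family cytokines and receptors, none passed for diet in SPF mice in edgeR or limma-voom and 1 did in DESeq2. An unadjusted p under 0.05 was reached by 4 (28.4% of all genes, edgeR). For diet with ABX none passed in these 3 tools, with 2 at an unadjusted p under 0.05 (14.7% of all genes, edgeR). ABX raised the IL-18 receptor chain Il18r1 on CD (3.57 ± 0.534 to 5.78 ± 0.915 CPM, SD, n = 5; log2 fold change 0.69, q = 0.0245, edgeR) and the IL-33 receptor Il1rl1 on TDD (1.39, q = 0.0407, edgeR). Il18bp, which encodes a soluble inhibitor that binds IL-18, was lower with both treatments than with neither (5.09 ± 0.996 and 8.61 ± 2.28 CPM, SD, n = 5; log2 fold change -0.76, q = 0.00265, edgeR). Of the 12 listed genes of the IL-18 axis in the gut, 9 were tested and Ifng, Il22 and Retnlb were under the filter. None of the 9 passed for diet in either setting (edgeR, DESeq2 and limma-voom). An unadjusted p under 0.05 was reached by 2 in SPF mice (28.4% of all genes) and 0 with ABX (14.7%, edgeR). ABX lowered Tbx21, the T-bet gene, on CD (-1.34, q = 0.0058) and Il22ra2, a decoy receptor for IL-22, on TDD (-1.06, q = 0.0104, edgeR). Tbx21 was scarce, at 1.52 ± 0.734 CPM in CD and 0.599 ± 0.134 CPM in CD+ABX mice (SD, n = 5).

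Interferon-linked regulators and GTPases, several of which help caspase-11 reach bacterial lipopolysaccharide, were lower with TDD in SPF mice for 10 of 14 tested genes, with a median log2 fold change of -0.61 against 0.01 over all genes. Gbp3 fell from 19.4 ± 5.34 to 9.48 ± 1.62 CPM (q = 0.000185) and Gbp2 from 21.0 ± 1.79 to 14.6 ± 1.34 CPM (SD, n = 5; q = 0.000276, edgeR). Iigp1 (-0.83, q = 0.00124) and Igtp (-1.47, q = 0.00135, edgeR) fell as well. With ABX the diet lowered none of the 14 in edgeR or limma-voom and 2 in DESeq2, and 13 of the 14 had a negative sign. An unadjusted p under 0.05 was reached by 7 (14.7% of all genes, edgeR). None of the 14 passed the interaction test in edgeR, DESeq2 or limma-voom, with 4 at an unadjusted p under 0.05 (8.87% of all genes, edgeR). ABX lowered 6 on CD, among them Gbp5 (-0.67, q = 0.000408) and Iigp1 (-0.82, q = 0.00188), and 2 on TDD, Gbp5 (-0.48, q = 0.00416) and Ifi204 (-0.66, q = 0.00931, edgeR). In the same diet comparison of SPF mice the log2 fold change of Casp1 was -0.53 and that of Casp4 0.05.

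**Figure D4:**
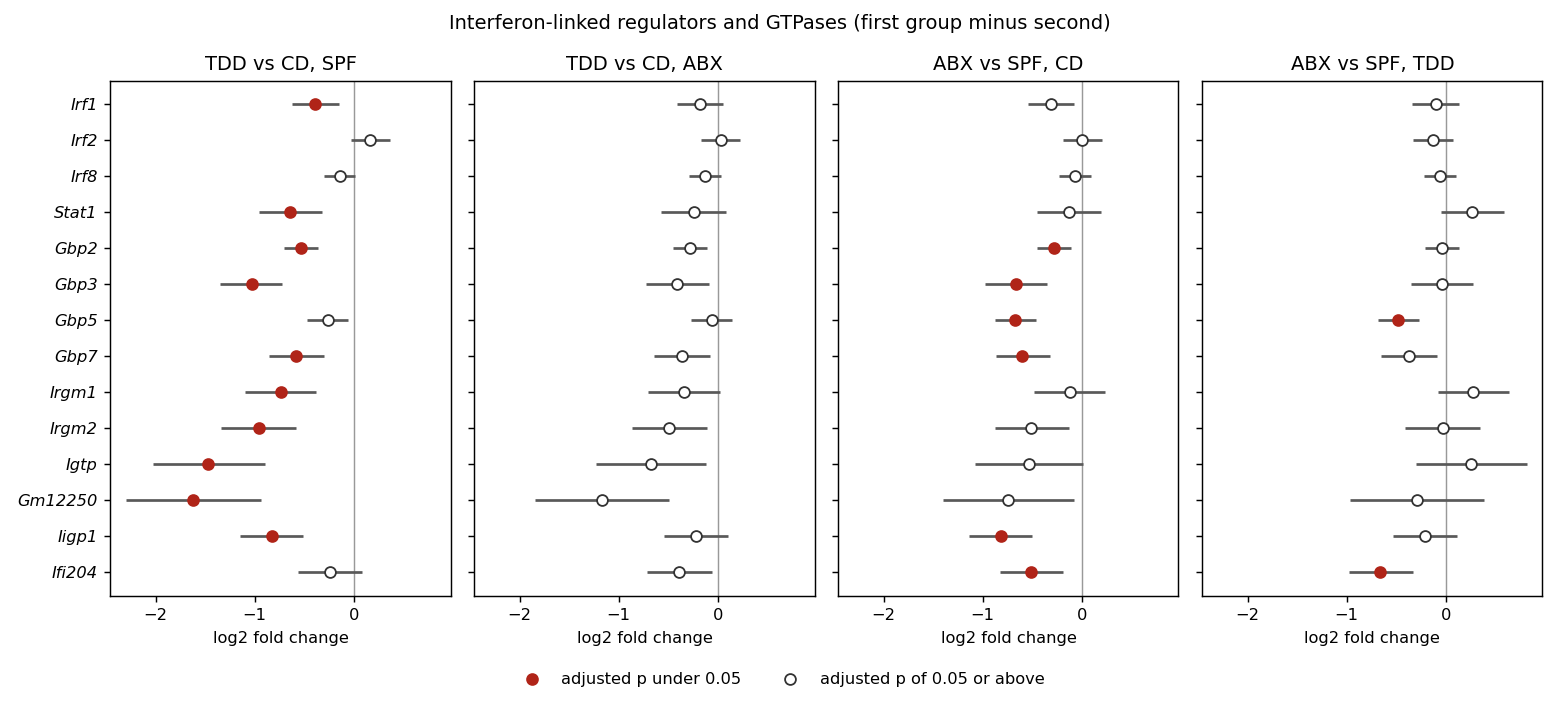
Log2 fold change (x axis) of 14 interferon-linked genes in the 4 single-factor comparisons, with 95% intervals as for the members. Filled points passed at q under 0.05: 10 for diet in SPF mice, 0 for diet with ABX, 6 for ABX on CD and 2 for ABX on TDD.

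The genes most like 3 of the members were found by Pearson's r of log2(CPM + 1) over the 20 mice, among 14038 genes with a mean of at least 1 CPM. Because the mice fall into 4 groups and all values come from the same libraries, r is given as a description, with its value after each mouse was set against its group mean. Casp1 was most like Apol11b (r = 0.972, Spearman's rho = 0.938, deviations from group means r = 0.723), followed by Apol10b, Apol10c-ps, Apol10a (r = 0.952, deviations 0.818) and Sh3bgrl. Of these 5, 4 belong to the apolipoprotein L family, whose near-identical members can share reads. Their means had the same order as Casp1, with Apol10a at 858.9 CPM in CD, 720.2 CPM in CD+ABX, 387.1 CPM in TDD and 304.7 CPM in TDD+ABX mice.

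Il18 was most like S100a1 (r = 0.87, rho = 0.774, deviations 0.794), then Slc22a13, Ero1lb, Gpr151 and Slc22a13b (r from 0.861 to 0.839). Slc22a13b had means of 10.1 CPM in CD, 13.6 CPM in TDD, 1.31 CPM in CD+ABX and 1.71 CPM in TDD+ABX mice. Nlrp6 was most like C1qtnf12 (r = 0.903, rho = 0.91, deviations 0.522), then Alppl2, Snx6, Gfod2 and Mboat7 (r from 0.899 to 0.88). Alppl2 had means of 7.16 CPM in CD, 1.15 CPM in TDD, 8.84 CPM in CD+ABX and 3.63 CPM in TDD+ABX mice, an order shared with Nlrp6. When the 2 mice farthest from the median were left out, r was 0.965 for Casp1 with Apol11b, 0.822 for Il18 with S100a1 and 0.872 for Nlrp6 with C1qtnf12. Among pairs of members, r was highest for Nlrp9b and Naip1 (0.923) and lowest for Nlrp6 and Il18 (-0.574).

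**Figure D5:**
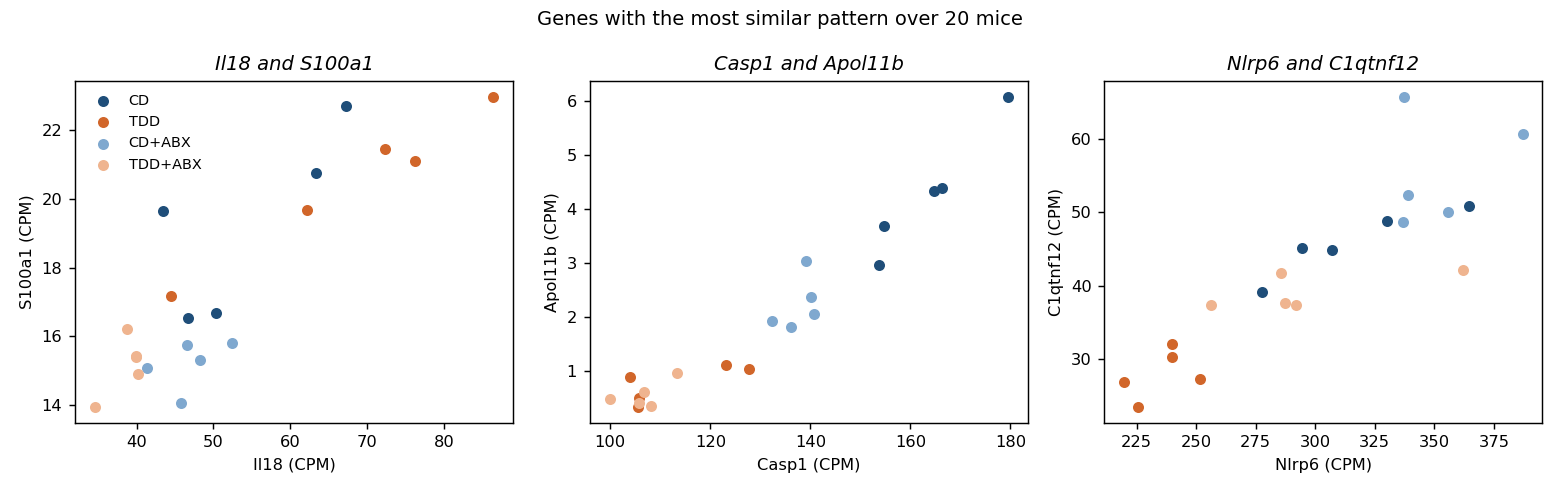
CPM of Il18, Casp1 and Nlrp6 (x axes) against the gene with the most similar pattern (S100a1, Apol11b and C1qtnf12, y axes) in 20 mice, coloured by group. Casp1 and Apol11b order the groups alike, from CD at the top to both TDD groups at the bottom (r = 0.972 over all mice).

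The deposited transcript levels showed which isoforms these values rest on. Casp1 and Nlrc4 had 1 transcript each. Il18-204 held 87.4% to 88.1% of the Il18 TPM in the 4 group means, Casp4-201 held 71.6% to 74.8% and Naip2-202 held 77.5% to 86.3%. For Naip1 the mean shares of SPF and ABX-treated mice stood further apart. The protein-coding Naip1-204 held 68.6 ± 5.07% in CD and 63.9 ± 3.73% in TDD mice, against 54.8 ± 6.3% in CD+ABX and 54.1 ± 7.93% in TDD+ABX mice (SD, n = 5). Naip1-203, annotated as a target of nonsense-mediated decay, held 18.7 ± 5.05% and 22.4 ± 4.62% in CD and TDD mice and 32.5 ± 6.16% and 33.0 ± 10.2% with ABX. Between CD and CD+ABX mice, the ranges of Naip1-203 met (14.2% to 26.8% and 23.6% to 41.0%) and those of Naip1-204 came close without meeting (60.3% to 73.5% and 44.4% to 59.9%). These shares were not tested. They were estimated from reads that the isoforms and the other Naip genes share.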

How the data were processed

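Terminal ileum RNA was poly-A selected and sequenced on an Illumina NovaSeq, and the authors assigned reads to the GRCm38 transcriptome with kallisto 0.44.0. They deposited estimated counts per gene and, per the file headers, a table for each mouse of estimated counts and TPM by transcript. kallisto divides reads shared by isoforms or paralogs by estimation, and whether strand was used is not given in the sources used here. Gene-level counts, whole numbers as deposited, were scaled by TMM. Genes that reached 0.5 CPM in 1 mouse or more entered edgeR 4.0.16 (R 4.3.3), quasi-likelihood, with 4 group means in 1 fit and Benjamini-Hochberg adjustment over 16306 genes. The robust estimate of the spread was chosen after a fit without it had been seen. The same members passed in both. Intervals are 95%.

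TPM per gene is the sum of the deposited transcript values. Of 11562 abundant genes, 141 held 2 times the sum of their transcripts in the count table (within 0.02 of it), none a member. Transcripts were assigned to genes by GENCODE M21 (111362 of 113193 matched). Alternatives were RLE and upper-quartile scaling, other filters, DESeq2 1.42.0, limma 3.58.1 (voom, and log2(TPM + 1) and log2(TPM + 0.1)), counts summed from transcripts, the compared groups alone, a replicate block, a 2-fold limit and leaving out each mouse. The scripts were tested on simulated data. All 10 members were named in every comparison, with up to 4 genes of each pathway list by smallest q (1 of these is not reported here) and the 5 genes most like Il18, Casp1 and Nlrp6. Members and lists were chosen with earlier results of these data known. The study's text gives 4 to 5 mice a group and does not name those left out. All 20 were used. The labels do not say that libraries came from separate cages or litters, so p-values measure the spread between these libraries.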

Additional observations from a re-analysis of the deposited data

Results flagged for a closer look

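Values of 1 mouse far from the other 4 of its group, by Dixon's ratio of the gap to the range (95% critical value 0.71), were found in 4 of 40 groups of 5, where chance gives about 2. In CD mice, mouse 2 was far below the others for Naip2 (79.4 CPM, the others 114.8 to 127.3 CPM) and Gsdmd (208.2 CPM, the others 322.2 to 362.4 CPM). Its ileal enterocyte markers were also the lowest and its smooth muscle markers the highest, as given above, and their part in these values was not tested. TDD mouse 1 was far above the others for Naip1 (130.4 CPM, the others 74.0 to 83.1 CPM). TDD+ABX mouse 2 was far below the others for Il18 (34.6 CPM, the others 38.8 to 40.2 CPM).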

How the results depend on the processing

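The members passing were 3 for diet in SPF mice, 1 for diet with ABX, 2 for ABX on CD, 3 for ABX on TDD, 6 for both treatments against neither, 5 for CD+ABX against TDD and 0 for the interaction. With a 2-fold limit each count was 0. For ABX on TDD it was 5 with the compared groups fitted alone and with log2(TPM + 0.1) or log2(TPM + 1), which added Naip2 (0.25, 0.34 and 0.33) and Pycard (0.25, 0.36 and 0.36), and 4 with DESeq2, which added Pycard (0.25). For both treatments against neither, Pycard was lost with the compared groups fitted alone (-0.28) and on either TPM scale (-0.08). Leaving out 1 mouse gave 3 to 5, 1 to 2, 2 to 2, 3 to 4, 4 to 6, 5 to 6 and 0 to 0 members in the same order. The 5 for diet in SPF mice came without CD mouse 2, the 2 for diet with ABX without TDD+ABX mouse 2, and the 4 for both treatments against neither without TDD+ABX mouse 2. Pycard in TDD-fed mice given ABX also passed without TDD+ABX mouse 5 (0.30, edgeR q = 0.0344). Naip2 in CD+ABX against TDD passed without CD mouse 2 (0.22, edgeR q = 0.0262). Each was the only 1 of 20 such fits that passed (q up to 0.171 for Pycard and 0.31 for Naip2). Of the members' log2 fold changes in the settings other than these limits and leave-outs, 790 kept direction and side of the threshold, 3 lost it and 7 gained it.

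The sign turned in 30, with none past the threshold in either fit. On the TPM scale these were, for diet in SPF mice, Nlrc4 (-0.03) and Casp4 (0.00), for diet with ABX Nlrc4 (0.03), for ABX on CD Pycard (0.01), for ABX on TDD Casp1 (0.02), for both treatments against neither Gsdmd (0.01), for CD+ABX against TDD Nlrp9b (0.01) and Naip1 (0.06 and 0.05), and for the interaction Nlrc4 (0.06), Naip1 (0.05) and Casp4 (0.07). In other fits they were Pycard for ABX on CD (0.00 with DESeq2, RLE or counts summed from transcripts), Naip2 for ABX on CD (0.00) and Nlrc4 for ABX on TDD (-0.01) with upper-quartile scaling, Gsdmd for both treatments against neither with limma-voom (0.00), and the interaction of Nlrp9b (0.00 with either other filter). The cause was not tested.

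Without 1 mouse the sign also turned for values near 0, with these lowest and highest values and none passing. For diet in SPF mice they were Nlrc4 (-0.10 to 0.07) and Casp4 (-0.01 to 0.11), and for diet with ABX Nlrc4 (-0.07 to 0.02), Naip2 (-0.02 to 0.07), Casp4 (-0.07 to 0.10) and Gsdmd (-0.05 to 0.11). For ABX on CD they were Nlrc4 (-0.07 to 0.09), Naip2 (-0.10 to 0.05), Pycard (-0.07 to 0.05) and Gsdmd (-0.14 to 0.02), and for ABX on TDD Nlrc4 (-0.02 to 0.04). For both treatments against neither they were Nlrc4 (-0.08 to 0.07), Naip2 (-0.05 to 0.08) and Gsdmd (-0.12 to 0.03), and for CD+ABX against TDD Nlrp9b (-0.13 to 0.16), Nlrc4 (-0.02 to 0.08) and Naip1 (-0.09 to 0.14). For the interaction they were Nlrp9b (-0.15 to 0.19), Nlrc4 (-0.09 to 0.09), Naip1 (-0.11 to 0.13) and Casp4 (-0.10 to 0.06).

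Over all genes, 2342 passed for diet in SPF mice and 1389 with the 2 groups fitted alone. For diet with ABX the 268 became 613 with DESeq2, 159 with no filter and 102 to 486 without 1 mouse (lowest without CD+ABX mouse 4, highest without CD mouse 2). For ABX on TDD the 2505 became 1367, 1536 and 1500 without TDD+ABX mouse 1, 2 or 3. The 6 for the interaction became 134 with DESeq2, 12 and 10 with log2(TPM + 0.1) and log2(TPM + 1), 0 with RLE, limma-voom, either other filter or counts summed from transcripts, and 0 to 29 without 1 mouse. Mice with the same replicate number did not deviate together (r from -0.419 to 0.289 in 30 pairs, and 7 of 60 best matches), so the numbers were not taken to pair the mice. With the replicate number as a block the members passing were 3, 1, 2, 3, 6, 5 and 0, and genes passing for diet with ABX fell to 113 and for the interaction to 0.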
